A study of Mus musculus with 1 sample.

Results

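Activins, inhibins, follistatins and anti-Müllerian hormone (AMH) form a set of hormones, binding proteins and receptors of the TGF-β family, and 10 of their genes were followed here among the 27998 genes listed for the library. They were chosen by name and not by any measured value, but with earlier results of these data known. The set holds the subunit genes Inha, Inhba and Inhbb, the binding proteins Fst and Fstl3, the hormone gene Amh with its receptor gene Amhr2, and the activin receptor genes Acvr1b, Acvr2a and Acvr2b. All 10 were detected, with between 53 UMIs (unique molecular identifiers, each counting 1 captured mRNA) for Acvr2a and 3295 for Inha.

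The data are single-cell RNA sequencing of 1 wild-type (Zscan2+/+) library from C57BL/6 mice at postnatal day 8, with no treatment. Testis cells of 3 mice were pooled in equal numbers, so no value can be given per animal. Cells with the surface protein THY1 were enriched on magnetic beads, and unselected testis cells were then added back, so the numbers of cells per type follow from this mixture. The knockout library of the same study was not analysed here. Because there is 1 library, no test between cell types was made, and every interval below is an exact 95% interval that covers counting error only.

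Activins are dimers of the βA subunit (Inhba) or the βB subunit (Inhbb). They bind a type II receptor (Acvr2a or Acvr2b), which recruits the type I receptor Acvr1b and leads to activation of SMAD2 and SMAD3. Inhibins pair the α subunit (Inha) with either β subunit, and hold activin receptors without activating them. Follistatin (Fst) and follistatin-like 3 (Fstl3) bind activins outside the cell. AMH, made by Sertoli cells of the immature testis, acts through its own type II receptor Amhr2 and makes the Müllerian ducts regress. In the young testis these genes belong to the exchange of signals between Sertoli cells, interstitial cells, peritubular cells and spermatogonia, and inhibin from the testis lowers the secretion of FSH.

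Of 970 cell barcodes, 920 were kept, with a median over all barcodes of 9115 UMIs. Clustering made without these 10 genes gave 256 Sertoli-like, 185 stromal-like, 94 peritubular myoid-like and 324 germ cells, leaving 35 macrophage-like cells and a T cell-like cluster of 26. The germ cells divided into 112 SSC-like (spermatogonial stem cell-like), 79 progenitor-like and 133 differentiating-like cells. Germ cells were deeper, with a median of 18217 UMIs against 8345 in Sertoli-like, 8370 in stromal-like and 7446 in myoid-like cells. Levels are UMIs per 1000000 UMIs of a class (CPM). The summed level of the 6 Sertoli markers was 6670 CPM in Sertoli-like cells and between 79.4 and 156 CPM in the stromal-like, myoid-like and germ classes. The T cell-like cluster also held endothelial markers at 763 CPM and myoid markers at 2484 CPM, and is not compared. No cluster formed around Leydig cell markers, but 9 cells carried at least 10 UMIs of the 6 Leydig markers, of which 8 lay in the stromal-like class and 1 in the Sertoli-like class. Levels of Inha and Inhba that rest on them are given with and without them, but the later percentages of marker levels include them. UMIs were counted near the 3′ end of each transcript, and levels are compared between classes for 1 gene at a time, not between genes.

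Positions are given in GRCm38 from the GENCODE annotation. Inha and Inhbb lie on chromosome 1, at 75507077 to 75510366 on the plus strand and 119415465 to 119422248 on the minus strand. Fstl3 (chromosome 10, 79777272 to 79782630, plus) and Amh (chromosome 10, 80805243 to 80807648, plus) lie on the same chromosome. Inhba (16011851 to 16031621, plus) and Fst (114452290 to 114458951, minus) are on chromosome 13, Amhr2 (102445367 to 102454633, plus) and Acvr1b (101174067 to 101213684, plus) on chromosome 15. Acvr2a is on chromosome 2 (48814109 to 48903269, plus) and Acvr2b on chromosome 9 (119402118 to 119434995, plus). Some share bases with genes on the opposite strand, 1157 bases for Fstl3 with Prss57, 446 for Acvr2a with Orc4, 3909 for Acvr2b with Gm47320, 289 for Fst with Gm47040, and for Inhba 11573 with B230303A05Rik and 6240 with Gm48444. Reads from such overlaps are uncertain as far as the counting did not use the strand.

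Short promoter windows are shown because some genes of Sertoli cells, Amh among them, are known targets of NR5A1, GATA factors and WT1. RefSeq windows of the GRCm38.p6 build, 250 bases before to 50 after the annotated start, matched 8 of the 10 genes, all but Amh and Fst. The RefSeq window of Inha lies inside the gene as GENCODE draws it, downstream of the GENCODE start. The letters AAGGTCA, bound by NR5A1, occurred on either strand in 1 of 8 windows, that of Amhr2, and in 4.72% of all 32851 windows. The GC box GGGGCGG, which WT1 and other zinc finger proteins can bind, occurred in 6 of 8 windows and in 23.2% of all. The 6 were those of Inhbb, Fstl3, Amhr2, Acvr1b, Acvr2a and Acvr2b, with between 55.3% (Amhr2) and 80.3% (Acvr2a) G and C bases. Windows of like base composition were not compared. The letters AGATAA, read by GATA factors, stood in 11.2% of all windows, and AACAAT, read by SOX factors, in 10.7%. The cAMP response element TGACGTCA stood in 1.79% and its shorter core TGACG, which every full element contains, in 20.8%. None of these 4 occurred in the 8 windows. Such matches describe the letters of these windows only. The 30 bases around matches in the Sertoli-led members read as follows, written 5′ to 3′ on the strand of the gene, with the motif or its reverse complement in capitals. They lie at chr15:102445125-102445154 (NR5A1 letters of Amhr2, first base 231 bases before the start), chr15:102445338-102445367 (Amhr2), chr1:119422352-119422381 (Inhbb, minus strand), chr10:79777197-79777226 (Fstl3) and chr15:101173901-101173930 (Acvr1b).
Amhr2, NR5A1 letters: caccttcttccAAGGTCAgtaggggtagag
Amhr2, GC box: taggacagagcGGGGCGGagttggggattg
Inhbb, GC box: cgcctccccctCCGCCCCcgggacgcccga
Fstl3, GC box: cccgctgcgccCCGCCCCgcccgccgccgg
Acvr1b, GC box: ggcgagagcctCCGCCCCtttaacagggac

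Across the 4 main classes, the members fell into a Sertoli-led group (Inha, Inhbb, Amh, Amhr2, Fstl3 and Acvr1b), a stromal-led gene (Inhba) and a germ cell-led pair (Fst and Acvr2b), while Acvr2a showed no leading class. A gene was called when its CPM in a class was at least 2-fold above or below that in all other kept cells. In Sertoli-like cells 6 of 10 members were called higher and 3 lower (Inhba, Fst and Acvr2b), where 17.3% and 28.2% of the 12989 genes with at least 20 UMIs were called. In stromal-like cells 1 member was called higher and 8 lower, against backgrounds of 12% and 35.6%. In myoid-like cells none was higher and 8 were lower, against 10.8% and 38.4%. In germ cells 2 were higher and 7 lower, against 25.3% and 28.7%. For these 3 classes all other kept cells include the Sertoli-like cells, so their lower calls of Sertoli-led genes restate the Sertoli lead. Inha, called lower in stromal-like cells, was at 40.1 CPM there, above 16.2 in myoid-like and 14.2 in germ cells. A mitochondrial limit of 5 percent left out 257 of the 324 germ cells. It also lay below the median mitochondrial share of Sertoli-like cells (6.07%), so many of these were left out too. With that limit the count of members higher in germ cells was 0, and the log2 ratio of Fst there was −0.58. Acvr2b then had under the 20 UMIs needed to be counted, while its log2 ratio in germ cells was between 1.68 and 3.68 under all alternatives run. The 6 Sertoli-led members also passed a 4-fold limit, which 6.74% of all genes passed.

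**Figure D1:**
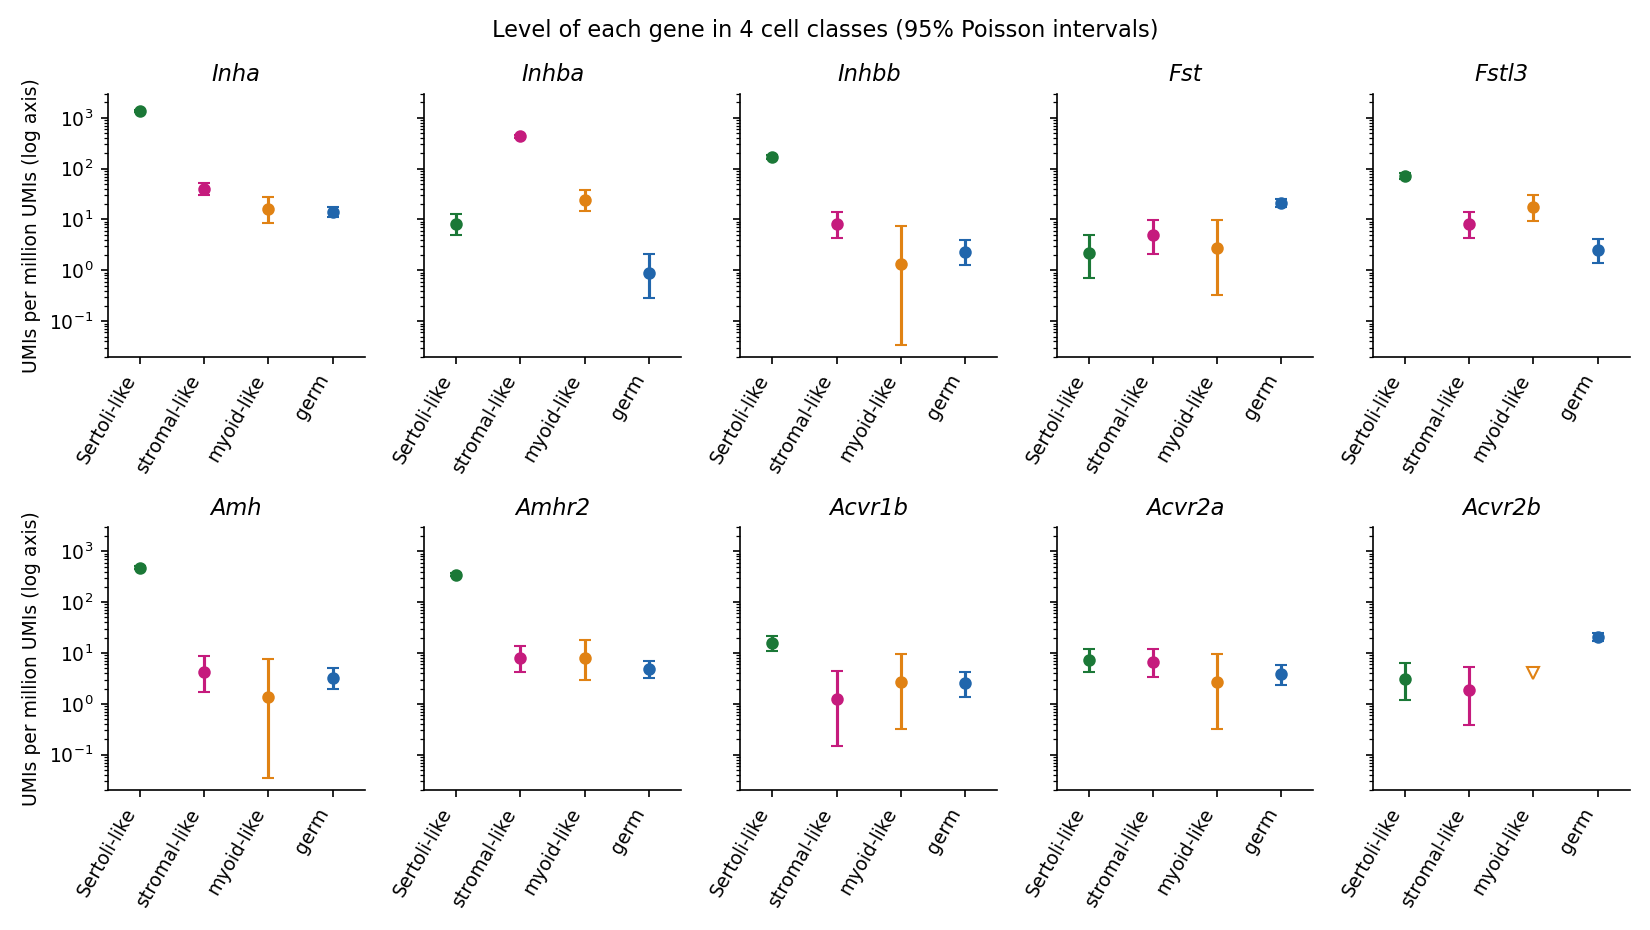
Level of each of the 10 members in the 4 main classes of cells, in UMIs per 1000000 UMIs of the class on a log axis, with exact Poisson 95% intervals for counting error and an open triangle at the limit that 0 UMIs allow. Inha, Inhbb, Amh, Amhr2 and Fstl3 were highest in Sertoli-like cells, Inhba in stromal-like cells (432 CPM), and Fst and Acvr2b in germ cells (21.2 and 20.9 CPM).

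Inha, the α subunit shared by both inhibins, was found in nearly every Sertoli-like cell. Its level was 1350 CPM there (interval 1303 to 1398), 40.1 in stromal-like, 16.2 in myoid-like and 14.2 in germ cells. Sertoli-like cells held 3129 of its 3295 UMIs, 94.96%, and their level was 69.9 times that of all other cells (59.8 to 82.2). A UMI was present in 99.2% of the Sertoli-like cells, before and after thinning each cell to 5000 UMIs. In germ cells that share was 21.3% unthinned and 7.89% thinned. The median Sertoli-like cell carried 10 Inha UMIs, and the highest 46. Stromal-like exceeded myoid-like cells 2.48-fold, and myoid-like and germ cells were not separated by counting error. Of the stromal-like UMIs, 18 of 65 came from 1 cell that also held 127 UMIs of Leydig markers. Without the 8 Leydig-rich stromal-like cells, the stromal-like level was 26.4 CPM (18.8 to 35.9), which was no longer separated from the myoid-like level (ratio 1.63, 0.836 to 3.41).

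Inhbb, the βB subunit, also led in Sertoli-like cells. Its level was 169 CPM in Sertoli-like (152 to 186), 8.03 in stromal-like, 2.34 in germ and 1.35 in myoid-like cells, where 1 UMI was counted. Sertoli-like cells exceeded all others 50.01-fold (34.3 to 75.7) and held 93.1% of its 420 UMIs. It was detected in 68.0% of these cells, 51.7% after thinning, with a median of 1 UMI and a maximum of 9.

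Inhba, the βA subunit, had the opposite place. Its level was 432 CPM in stromal-like cells (401 to 465), 24.3 in myoid-like, 8.20 in Sertoli-like and 0.900 in germ cells, and with all cells each step in this order was larger than counting error. Stromal-like cells held 700 of 744 UMIs and stood 91.3 times above all other cells (67.3 to 127). In 87.0% of them at least 1 UMI was present (78.9% thinned), against 1.95% of Sertoli-like and 1.54% of germ cells. The median stromal-like cell carried 3 Inhba UMIs, and the highest 18. Of the 19 UMIs in Sertoli-like cells, 15 came from the single Leydig-rich cell, which carried 377 Leydig marker UMIs, 105 Sertoli marker UMIs and 43 Inha UMIs. Without that cell the Sertoli-like level was 1.74 CPM (0.475 to 4.46), on 4 UMIs, and was no longer separated from that of germ cells (ratio 1.94, 0.384 to 8.99). Thus transcripts of the 2 β subunits were found mostly in different classes of cells, Inhbb with Inha in Sertoli-like cells and Inhba in stromal-like cells with little Inha.

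Among the binding proteins, Fst was a germ cell transcript in this library and Fstl3 a Sertoli-like one. Fst was at 21.2 CPM in germ cells (17.6 to 25.4), 4.94 in stromal-like, 2.70 in myoid-like and 2.16 in Sertoli-like cells. Germ cells held 118 of its 133 UMIs and exceeded all other cells 7.59-fold (4.42 to 13.99). The 3 somatic classes were not separated from each other. Fstl3 was at 72.1 CPM in Sertoli-like cells (61.5 to 83.9), 17.6 in myoid-like, 8.03 in stromal-like and 2.52 in germ cells, and Sertoli-like cells exceeded myoid-like cells 4.10-fold (2.34 to 7.87). It was found in 28.5% of Sertoli-like cells (19.9% thinned), a smaller share than for the 4 Sertoli-led genes Inha, Amh, Amhr2 and Inhbb.

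Amh and its receptor gene Amhr2 were both Sertoli-like transcripts. Amh was at 479 CPM in Sertoli-like cells (452 to 508), 4.32 in stromal-like, 3.24 in germ and 1.35 in myoid-like cells, and these last 3 levels were not separated. The ratio of Sertoli-like to all other cells was 153 (104 to 233), the highest of any member, and 97.6% of its UMIs were in Sertoli-like cells. A UMI was present in 88.7% of them (77.1% thinned), against 4.94% (1.08% thinned) of germ cells. Amhr2 was at 346 CPM in Sertoli-like (322 to 370), 8.10 in myoid-like, 8.03 in stromal-like and 4.86 in germ cells. Sertoli-like cells stood 63.2-fold above all others (47.1 to 86.8), and 90.2% of them had a UMI (80.1% thinned). The median Sertoli-like cell carried 3 UMIs of each gene, while the maximum was 45 for Amh and 13 for Amhr2.

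The activin receptors were sparse, with 53 to 127 UMIs per gene. Acvr1b, the type I receptor, was at 15.5 CPM in Sertoli-like cells (10.9 to 21.5), 2.70 in myoid-like, 2.52 in germ and 1.23 in stromal-like cells, on 36, 2, 14 and 2 UMIs. Sertoli-like cells stood 5.14-fold above all others (3.02 to 8.86). The 35 macrophage-like cells were at 13.6 CPM on 7 UMIs, which did not differ from the Sertoli-like level beyond counting error (ratio 1.15, 0.503 to 3.05). Acvr2a, a type II receptor, was at 7.34 CPM in Sertoli-like, 6.79 in stromal-like, 3.78 in germ and 2.70 in myoid-like cells, with no neighbours separated and a ratio of Sertoli-like to all other cells of 1.75 (0.923 to 3.2). Acvr2b, the other type II receptor, was at 20.9 CPM in germ cells (17.3 to 25.05), 3.02 in Sertoli-like and 1.85 in stromal-like cells. None of its UMIs fell in the 94 myoid-like cells, which allows a level of up to 4.05 CPM. Germ cells exceeded all other cells 10.2-fold (5.48 to 20.9) and held 91.3% of its UMIs.

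Free RNA released from one cell type adds UMIs to all droplets, so the low levels outside the leading class were set beside those of markers of that class. In germ cells the 6 Sertoli markers were at a median of 1.15% of their Sertoli-like level (range 0.962 to 1.48%). Inha (1.05%), Inhbb (1.39%) and Amhr2 (1.41%) lay within that range and Amh (0.676%) below it, on 18 UMIs whose counting error reached into the range. Whether their UMIs in germ cells were free RNA or low expression was not tested. Fstl3 (3.498%) and Acvr1b (16.2%) lay above it. In stromal-like cells the markers were at a median of 2.56% (1.27 to 3.55%). Inha (2.97%) and Amhr2 (2.32%) lay inside this range and Amh (0.902%, 7 UMIs) below. Inhbb (4.76%, 13 UMIs), Fstl3 (11.1%) and Acvr1b (7.95%, 2 UMIs) lay above. Counting error reached into the range for Amh, Inhbb and Acvr1b. These levels include the Leydig-rich cells, 1 of which held 29 Sertoli marker UMIs and 18 of the 65 Inha UMIs. Without them Inha was at 26.4 CPM instead of 40.1, and the marker range was not recomputed. In myoid-like cells (markers 0.794 to 2.99%) only Fstl3 at 24.4% and Acvr1b at 17.4% stood above the range, the latter on 2 UMIs. Of the stromal-led Inhba, 1.90% of the stromal-like level was found in Sertoli-like cells, where stromal markers reached 0.351 to 1.46%, and that level includes the Leydig-rich cell. In germ cells it was at 0.208%, within the 0.113 to 1.90% of the markers. In myoid-like cells Inhba was at 5.63%, below the 8.05 to 245% of the stromal markers, several of which myoid-like cells express themselves. Of the germ cell-led genes, Fst in Sertoli-like cells was at 10.2% of its germ level and Acvr2b at 14.5%, on 5 and 7 UMIs. Germ markers there were at 1.18 to 13.6% (median 2.36%, the highest Taf4b). In stromal-like cells Fst (23.3%, 8 UMIs) lay above the marker range of 1.48 to 9.71%, and Acvr2b (8.87%) inside it. In myoid-like cells Fst was at 12.7% on 2 UMIs, where the markers were at 0 to 5.03%.

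Within germ cells, Fst and Acvr2b had unlike courses over the 3 subclasses. The SSC-like cells held 91 Fst UMIs, a level of 37.2 CPM (29.96 to 45.7). The progenitor-like level was 15.9 CPM (10.1 to 23.9) on 23 UMIs, and the differentiating-like level 2.40 CPM (0.655 to 6.16) on 4 UMIs. SSC-like cells exceeded progenitor-like cells 2.34-fold (1.47 to 3.88) and differentiating-like cells 15.5-fold (5.84 to 58.0), and progenitor-like exceeded differentiating-like cells 6.61-fold (2.26 to 26.3). The share of cells with a UMI was 45.5%, 19.0% and 2.26%. Differentiating-like cells were shallower (median 10878 UMIs against 22293 in SSC-like cells), and with all cells thinned to 5000 UMIs the shares were 16.4%, 8.33% and 0 of 97 cells. Follistatin transcripts were therefore found mainly in undifferentiated spermatogonia. Acvr2b ran the other way, from 16.4 CPM in SSC-like to 26.4 CPM in differentiating-like cells, with 22.1 CPM at the progenitor-like stage between them. Its SSC-like level was 0.619 times the differentiating-like one (0.393 to 0.971). The steps from SSC-like to progenitor-like (0.739, 0.453 to 1.22) and from progenitor-like to differentiating-like cells (0.837, 0.513 to 1.35) were each within counting error. Thinned shares were 6.36%, 12.5% and 13.4%. In the progenitor-like cells, red blood cell markers summed to 7107 CPM (95.7 in SSC-like and 100.98 in differentiating-like cells), with 10137 of those UMIs in 1 cell. Without that cell Fst was at 16.0 and Acvr2b at 22.3 CPM. The 8 other members had between 0.409 and 16.4 CPM in each subclass.

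**Figure D2:**
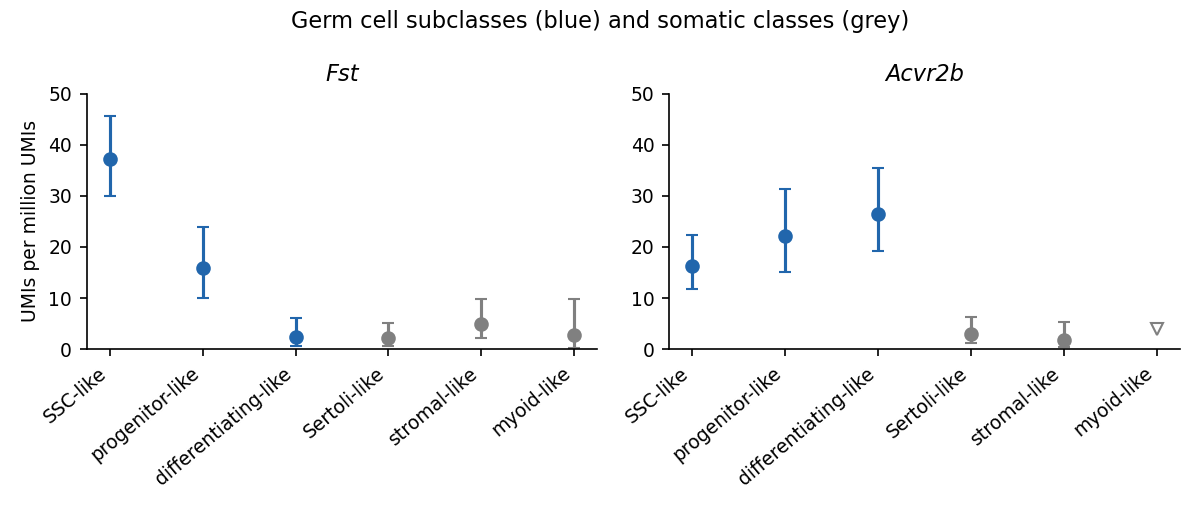
Level of Fst and of Acvr2b, in UMIs per 1000000 UMIs, in the 3 germ cell subclasses (blue) and 3 somatic classes (grey), with exact Poisson 95% intervals; the open triangle marks the limit of 4.05 CPM that 0 UMIs allow. Fst went from 37.2 to 2.40 CPM over the subclasses, while Acvr2b lay between 16.4 and 26.4 CPM.

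Sertoli-like cells differed among themselves beyond counting error, most for Fstl3 and Amh relative to the mean of each gene. After thinning, 236 cells remained, and the variance of UMIs over their mean, which is near 1 for counting error alone, was 3.11 for Amh, 2.64 for Inha, 1.86 for Fstl3, 1.32 for Amhr2 and 1.19 for Inhbb. Without 1 cell that carried 29 Amh UMIs, the value for Amh was 1.95. This ratio rises with the mean of a gene, so it does not rank genes of unlike level. The variance beyond counting error, divided by the squared mean, was 2.72 for Fstl3 and 0.880 for Amh. It was 0.236 for Inha, 0.222 for Inhbb and 0.174 for Amhr2. All 236 cells entered these values, and that of Amh was not recomputed without the cell of 29 Amh UMIs. The 24 cells richest in Fstl3 held 69.3% of its thinned UMIs. In their own 24 richest cells the share was 34.5% for Inhbb, 32.9% for Amh, 27.9% for Amhr2 and 23.8% for Inha, and this share is larger for a gene of lower mean through counting error alone. Amh was at 0 in 54 thinned cells and reached 29 UMIs in 1 cell, with 11 in the next. In stromal-like cells the variance over the mean was 1.78 for Inhba.

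**Figure D3:**
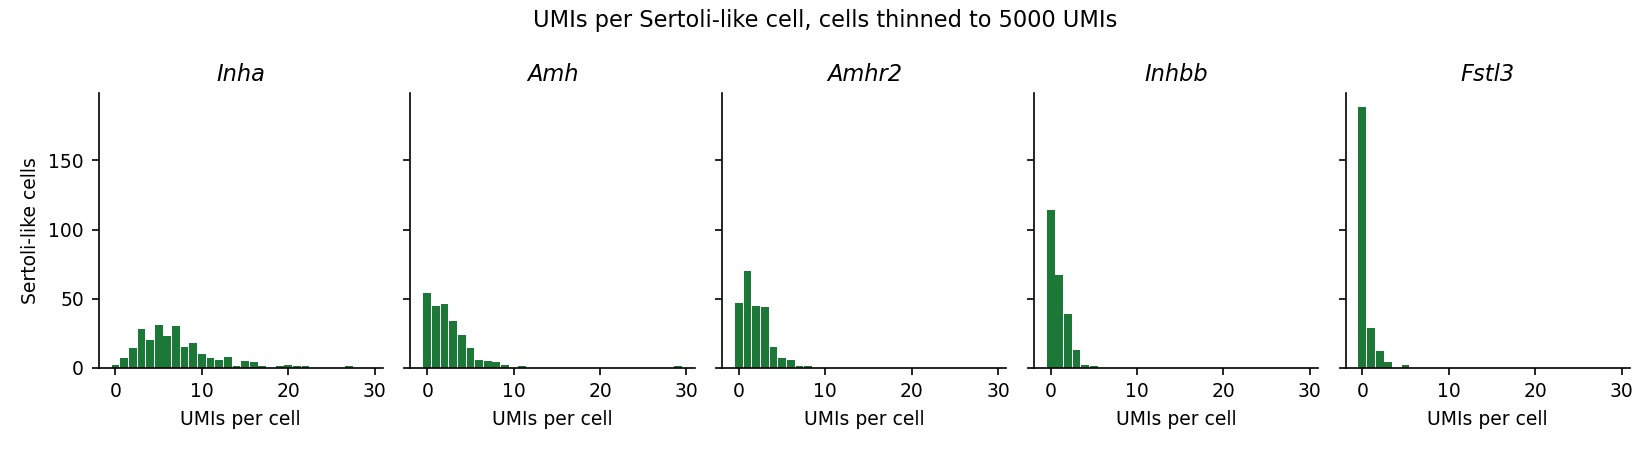
Number of Sertoli-like cells (vertical axis) at each number of UMIs per cell (horizontal axis) for 5 Sertoli-led members, after thinning every cell to 5000 UMIs. Inha was present in 99.2% of the cells and Fstl3 in 19.9%, and 1 cell stood apart with 29 Amh UMIs.

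Over these 236 cells, which share 1 library and 1 depth, Amh UMIs were correlated with Inha UMIs (Pearson r = 0.44, Spearman rho = 0.39). Without the cell of 29 Amh UMIs r was 0.49. Detection alone showed no link, as 181 cells had a UMI of both where independent detection would give 180.5. The other pairs had weak correlations, with r = 0.15 for Amh with Amhr2, −0.01 for Inha with Inhbb and 0.00 for Amh with Inhbb. Amh and Fstl3 went the other way (r = −0.20, rho = −0.28), and 25 cells had a UMI of both where independent detection would give 36.2.

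The split by Fstl3 was looked at further after this was seen, and is given as a description. Leaving out the Leydig-rich cell, 73 Sertoli-like cells had an Fstl3 UMI and 182 had none, with similar median depths of 8873 and 8188 UMIs. Amh was at 322 CPM in cells with and 557 CPM in cells without Fstl3, a ratio of 0.577 (log2 ratio −0.79, −1.01 to −0.58). Inha was at 1172 and 1423 CPM (0.824) and Amhr2 at 301 and 370 CPM (0.814), while the Inhbb difference (ratio 0.860, log2 interval −0.55 to 0.10) was within counting error. With thinned cells, 47 with Fstl3 and 188 without, the ratios were 0.465 for Amh, 0.823 for Inha, 0.921 for Amhr2 and 0.747 for Inhbb, the last 2 within counting error. The cell of 29 Amh UMIs had no Fstl3 UMI after thinning and counted among the 188, and ratios without it were not computed. Intervals of this split treat UMIs as independent, although Amh and Inha varied between cells beyond counting error. Over the 3486 other genes with at least 100 UMIs in these cells, the median log2 ratio was −0.03.

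Genes highest in the Fstl3-positive cells included Uchl1 (4.64-fold, a ubiquitin hydrolase), Cidea (4.49-fold, a lipid droplet protein), Siva1 (4.24-fold), Lgals1 (4.15-fold, galectin-1), Ssbp3 (3.75-fold), Cdc42ep5 (3.42-fold) and Stra6 (3.14-fold, a membrane protein for retinol uptake). The lowest included Hist1h2bc (0.276-fold), Fkbp5 (0.335-fold, a glucocorticoid-responsive gene) and Rasd1 (0.373-fold). All were picked from these cells by their ratio. Fstl3-positive cells were 29.5% of the 210 cells of the first Sertoli-like cluster and 23.9% of the 46 cells of the second, so clustering had not set them apart. Read the other way, which restates how Uchl1 was picked, 92 Sertoli-like cells with a Uchl1 UMI had Fstl3 at 134 CPM and 164 cells without had 33.6 CPM. In the same cells Amh was at 426 and 512 CPM (0.832-fold), and Inha, Inhbb and Amhr2 were not separated.

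**Figure D4:**
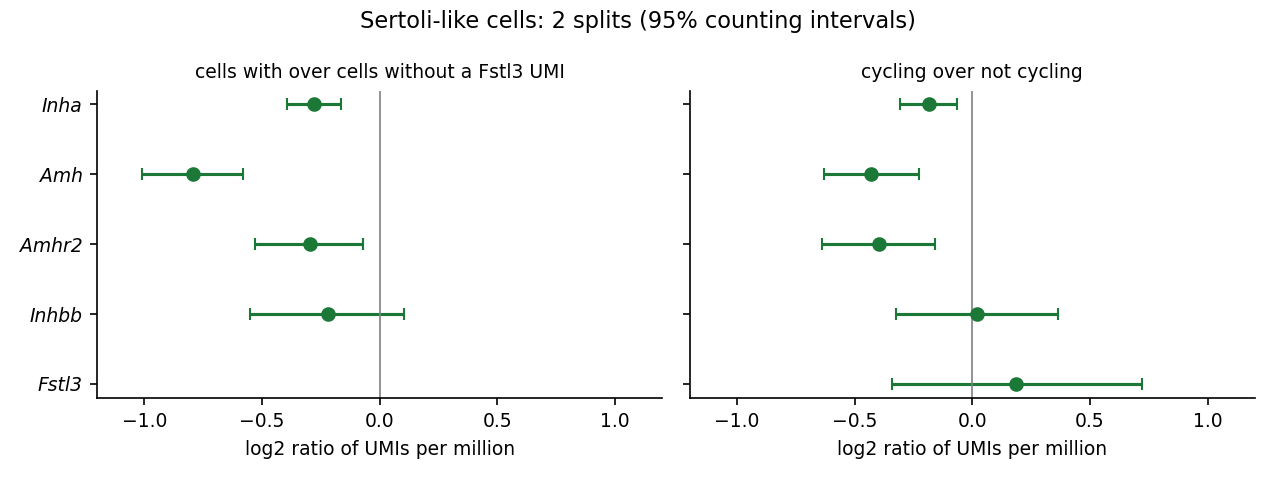
Log2 ratios of CPM of Sertoli-led members within Sertoli-like cells, for cells with over cells without an Fstl3 UMI (left) and for cycling over non-cycling cells (right), with 95% counting intervals. Amh lay below 0 in both (−0.79 and −0.43), and the interval of Inhbb spans 0 in both.

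Sertoli cells still divide at this age, and Amh and Amhr2 were lower in the cycling ones, with a smaller difference for Inha. Cycling cells (86) had UMIs of at least 2 of 8 cell cycle genes, and 97 cells had none. Amh was at 411 CPM in cycling and 553 in the other cells, a ratio of 0.743 (log2 ratio −0.43, −0.63 to −0.23). Amhr2 was at 300 and 395 CPM (0.759, log2 ratio −0.40, −0.64 to −0.16), and Inha at 1222 and 1390 CPM (0.879, log2 ratio −0.19, −0.31 to −0.06). Inhbb (1.01) and Fstl3 (1.14) did not differ beyond counting error. The cycling cells were deeper (median 9548 against 7873 UMIs), and the median log2 ratio over 7812 genes was 0.05 (quartiles −0.20 and 0.35). Inha lay between these quartiles, and Amh and Amhr2 lay below them. The intervals treat UMIs as independent, although Inha and Amh varied between cells beyond counting error. With the cycling cells chosen after thinning, 63 against 113 cells, the ratios were 0.784 for Amh, 0.742 for Amhr2, 0.818 for Inha and 1.05 for Inhbb. Inhba seemed higher in cycling cells, with 17 against 2 UMIs, but the counts were 2 against 2 without the Leydig-rich cell. Between the Sertoli-like clusters, of which the second held 45 cycling cells among 46, Amhr2 was 1.33-fold higher in the first (1.10 to 1.61). Inha (1.09, 0.999 to 1.19) and Amh (1.15, 0.988 to 1.34) were not separated there.

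The genes most like each member over the 10 clusters, by Pearson's r of log2(CPM + 10), are given as a description, since the clusters share 1 library and most genes of a class rise and fall together over so few points. Nearest to Inha were Gja1 (r = 0.998, connexin 43), Clu (0.997, a marker used to name the cells) and Fndc5 (0.996). Nearest to Inhbb were Clu (0.999), Tnni3 (0.998) and Gja1 (0.996). Amh was nearest to Shisa8 (0.9996), Cidea (0.998) and Kctd14 (0.997), and Amhr2 to Ctnnal1 (0.997), Cidea (0.995) and Shisa8 (0.993). Cidea, although nearest to Amh and Amhr2 over clusters, was also among the genes highest in the Fstl3-positive Sertoli-like cells, where Amh was lower. Fstl3 was nearest to Chka (0.985, choline kinase), Mxd1 (0.978) and Sel1l3 (0.974). Inhba went with the stromal genes Mfap5 (0.983, a microfibril protein), Prlr (0.982, the prolactin receptor) and Efemp1 (0.979, an extracellular matrix protein). Fst was nearest to Nefm (0.968, a neurofilament), Egr2 (0.963, an early response transcription factor) and Tmem132c (0.954), and Acvr2b to Syce3 (0.993, of the synaptonemal complex), Mettl16 (0.988, an RNA methyltransferase) and Apoo (0.988).

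Of 53 further genes of the pathway, 37 had at least 20 UMIs. In Sertoli-like cells 15 were at least 2-fold higher and 9 lower, with a median log2 ratio of 0.76 (−0.15 over all genes). In stromal-like cells 10 were higher and 8 lower (median −0.07, −0.54 over all genes), and in myoid-like cells 6 and 9 (−0.03, −0.61 over all genes). In germ cells 1 was higher, Smad2, and 23 were lower, with a median of −1.76 (0.04 over all genes). Over all genes, 17.3% were higher and 28.2% lower in Sertoli-like cells, and 12% and 35.6% in stromal-like cells. In myoid-like cells these shares were 10.8% and 38.4%, and in germ cells 25.3% and 28.7%.

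Among SMAD genes, Smad2, an effector of activin signalling, was at 50.6 CPM in germ cells and between 12.2 and 19.8 CPM in the 3 somatic classes (2.82-fold over all other cells). Smad3, the other effector, was at 22.4 CPM in Sertoli-like cells and 6.30 to 10.8 CPM elsewhere (3.11-fold). The class with most Acvr2b was thus also that with most Smad2. Smad7, an inhibitor induced by the pathway, was at 187 CPM in Sertoli-like and 10.5 to 28.4 CPM in the other 3 classes (8.37-fold), and Tgif1, a SMAD corepressor, at 164 and 7.41 to 32.4 CPM (8.56-fold). Ski, also a regulator of SMAD signalling, went the other way, at 35.0 CPM in Sertoli-like (0.449-fold) and 86.4 CPM in germ cells. Of 7 such regulators tested, 2 were higher and 2 lower in Sertoli-like cells, against 17.3% and 28.2% of all genes.

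Known regulators of the Amh and inhibin genes were also Sertoli-led. Gata4 was at 145 CPM in Sertoli-like cells and 1.98 in germ cells (12.7-fold over all other cells), and Gata6 at 119 CPM (92.7-fold). Nr5a1, whose letters stand in the Amhr2 window above, was at 93.2 CPM in Sertoli-like, 51.2 in stromal-like, 23.0 in myoid-like and 2.52 in germ cells. Nr0b1, a nuclear receptor that represses NR5A1, was at 57.4 CPM in Sertoli-like cells (14.1-fold). All 44 UMIs of Fshr, the FSH receptor, were in Sertoli-like cells, at least 54.4-fold above the level of 3 UMIs in the other cells.

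Of 7 other receptors tested, 4 were higher in stromal-like cells (Acvr1, Acvrl1, Tgfbr2 and Tgfbr3) and 2 in myoid-like cells (Acvrl1 and Tgfbr3). In Sertoli-like cells 3 were higher (Acvrl1, Bmpr1a and Bmpr2, the last 3.86-fold), and in germ cells 5 were lower. Over all genes, 12%, 10.8% and 17.3% were higher in stromal-like, myoid-like and Sertoli-like cells, and 28.7% lower in germ cells. Tgfbr3, also called betaglycan, a co-receptor that raises the binding of inhibin, was at 48.8 CPM in stromal-like and 29.7 in myoid-like cells, and at 0.863 in Sertoli-like and 1.98 in germ cells. It was therefore low in the class with most Inha and high in that with most Inhba. Fstl1, a more distant relative of follistatin, was at 467 CPM in myoid-like, 317 in stromal-like, 9.92 in Sertoli-like and 9.36 in germ cells, so that Sertoli-like cells, which led for Fstl3, were low in Fstl1. Tgfb2 (43.2 CPM, 23.6-fold), Lefty1 (21.6 CPM, 16.7-fold) and Bambi, a decoy receptor (105 CPM, 2.85-fold), led in stromal-like cells. The ligand Tgfb3 led in Sertoli-like cells (23.7 CPM, 6.58-fold). Tgfb1 was at 51.7 CPM in germ cells and between 13.5 and 17.3 CPM in the Sertoli-like, stromal-like and myoid-like classes. Its highest level was in the 35 macrophage-like cells, at 295 CPM on 152 UMIs. Germ cells were 1.13-fold above all other kept cells, so Tgfb1 was not called higher there. Tgfbr1 was between 14.8 and 22.4 CPM in all 4 classes and was not called. The precursor convertases, which cut TGF-β family proteins to their active form, differed in place, with Pcsk6 (24.6 CPM, 26.4-fold) and Furin (67.7 CPM, 3.37-fold) in Sertoli-like cells and Pcsk5 at 72.9 CPM in myoid-like and 32.1 CPM in stromal-like cells.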

How the data were processed

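Data were 1 matrix of UMI counts per gene and barcode, which the authors made with Cell Ranger 2.1.0 on mm10 (GRCm38) and deposited without normalization; the submitters' processing notes also name Seurat. Here barcodes below 500 genes, at or above 10% mitochondrial UMIs, or called doublets by scrublet (scanpy 1.11.5, 4 calls) were left out. Of 970 barcodes, these steps removed 10, 36 and 4. Depth was 2655 to 44915 UMIs per barcode. The rest were clustered with Seurat 5.3.0 in R 4.3.3 (log-normalized to 10000 UMIs, mean.var.plot variable genes, 14 principal components, resolution 0.5) without the members and the pathway list among the variable genes, and germ cells were clustered again. Cluster names came from the highest mean difference in marker expression; a name needed at least 3 markers detected in 10% of cells. A marker, Trac, was not listed.

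Levels are summed UMIs per 1000000, with exact Poisson, conditional binomial or binomial 95% intervals that cover counting error only (scipy 1.17.1). A class at 0 was given a floor of 3 UMIs. For shares, cells were thinned to 5000 UMIs and shallower cells left out, 20 of 256 Sertoli-like cells and 45 of 324 germ cells among them. Since cells of 1 library are not replicates, p-values are not given. Named were the members, pathway genes called in a class, and per member with at least 100 UMIs the 3 most similar genes; Tgfbr1 and the genes of the Fstl3 split were added after values were seen. Some genes that these rules name are not reported here. Members and gene lists were chosen with earlier results of these data known. Steps were tested on simulated data: classes drawn from summed germ cells took a red blood cell name when 1 cell's hemoglobin RNA was left in, and the right names without it. Alternatives covered filters, doublets, variable genes, components, resolution and thinning.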

Additional observations from a re-analysis of the deposited data

Results flagged for a closer look

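The 50 barcodes left out by the filters, which no comparison used, also held UMIs of the members, above the 3 UMIs that a count of 0 allows for 8 of the 10. They were 134 UMIs of Inha, 85 of Amh, 42 of Amhr2, 20 of Inhba, 10 of Inhbb, 5 of Fst, 5 of Acvr2b and 4 of Fstl3. As levels, Inha was at 302 CPM there, Amh at 191 and Amhr2 at 94.6 CPM, below those of Sertoli-like cells. The other 2 members had 3 UMIs (Acvr2a) and 1 UMI (Acvr1b). The classes of these barcodes were not determined.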

How the results depend on the processing

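No paired analysis was possible because the data hold a single library. The counts of members at least 2-fold higher were 5 or 6 in Sertoli-like, 1 in stromal-like and 0 in myoid-like cells under all 18 alternatives run. In germ cells the count became 0 with a mitochondrial limit of 5 percent, which left out 257 of 324 germ cells. Many Sertoli-like cells, whose median mitochondrial share was 6.07%, were left out by it too. The cells that each class was compared with therefore changed as well. Under that limit alone 4 log2 ratios past 2-fold changed sign, to 0.42 for Acvr2b in Sertoli-like, 1.14 for Fst in stromal-like, −0.58 for Fst in germ and 0.33 for Acvr1b in germ cells, and the uncalled ratio of Fstl3 in myoid-like cells went from −0.13 to 0.37. The ratio of Amh in Sertoli-like cells ranged from 4.47 to 7.87 (log2), that of Inhba in stromal-like cells from 2.40 to 7.18, and Fst in SSC-like over differentiating-like cells from 3.78 to 4.57 in 11 alternatives. Alternatives without Leydig-rich cells, without the hemoglobin-rich cell, without the cell richest in Amh and with the mean of the other 3 classes were chosen after seeing the data. Shares of germ cells with a UMI moved for all 10 members on thinning. Some settings left 62 to 83 of the germ cells outside the germ class. Members under 150 UMIs (Fst, Acvr1b, Acvr2a, Acvr2b) are limited by depth, and no value has an error between animals.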
